A study of Mus musculus with 9 samples.

Results

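A set of 45 genes for lysosomal enzymes, lysosomal membrane proteins, subunits of the proton pump that acidifies the lysosome and regulators of the organelle was examined in RNA-seq of mouse hearts at E10.5. The genes were listed by function, at a time when results of these hearts were known, and the aspartic protease gene *Ctsd*, whose change was larger than that of any listed gene, was left out. All 45 listed genes were found among the 14011 genes of the table. Proteases made up 11 of them, glycosidases and sulfatases 14, proteins of lipid handling 7, membrane proteins 6, V-ATPase proteins 5 and regulators 2. The study deleted *Ctcf*, the gene of an architectural chromatin protein, in the developing heart, and the question here was whether lysosomal genes moved with the deletion, as a group or singly. Each genotype had 3 libraries and each library was a pool of 6 hearts, so that a p-value measures the spread between pools. All groups carried at least 1 floxed *Ctcf* allele on a mixed strain background, and none was treated. Heterozygotes were *Ctcf* fl/+; *Nkx2.5-Cre*/+ and homozygotes were *Ctcf* fl/fl; *Nkx2.5-Cre*/+. Controls had no Cre (their columns in the table are named Het and those of the heterozygotes DH), and their floxed genotype is fl/fl in the sample labels and fl/+ in the study's text. *Nkx2.5-Cre* recombines in cardiac progenitors and their descendants, so blood and other cells outside that lineage keep *Ctcf* and controls differ from the other groups in the driver too.

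Lysosomes are acidic organelles in which hydrolases break down proteins, sugars, sulfated chains and lipids taken up by endocytosis or delivered by autophagy. The proton pump, a V-ATPase, keeps the lumen acidic, and heavily glycosylated membrane proteins such as LAMP1 and LAMP2 line the inner face of the organelle. Loss of single hydrolases causes storage diseases, of which Pompe disease, the loss of acid alpha-glucosidase (GAA), is known for glycogen storage in heart muscle. Many lysosomal genes share a promoter element, the CLEAR element, whose core TCACGTG is bound by TFEB and related factors of the MiT family.

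Promoter windows from RefSeq (GRCm38.p6, from 250 bases before to 50 bases after the annotated start) were listed for 39 of the 45 genes, without *Asah1*, *Atp6v1h*, *Ctsb*, *Ctsh*, *Galns* and *Npc1*. The E-box CACGTG was found in 12 of these 39 (30.8%), against 2187 of 27025 genes of the same table (8.09%). The longer TCACGTG, searched on both strands and contained in the same E-box, was found in 10 of 39 (25.6%), against 1160 of 27025 (4.29%). A match is a description of the letters in the window and does not show that a factor binds there. Of the 6 members with a window that were called in a comparison, *Gaa*, *Lgmn* and *Ctsa* held TCACGTG, and *Tfeb*, *Ctso* and *Grn* held neither motif. The sites below are given to set *Gaa*, *Lgmn* and *Ctsa* beside genes that hold the same element and were not called. Each stretch has 30 bases and reads 5′ to 3′ on the strand of the gene, with the E-box and, where present, the flanking T and A in capitals.
Gaa, chr11:119267811-119267840, plus strand, 140 bases upstream of the start: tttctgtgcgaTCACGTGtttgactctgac
Lgmn, chr12:102439124-102439153, minus strand, 49 bases upstream: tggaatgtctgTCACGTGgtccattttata
Ctsa, chr2:164833749-164833778, plus strand, 12 bases upstream: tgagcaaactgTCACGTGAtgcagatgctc
Lamp1, chr8:13159088-13159117, plus strand, 61 bases upstream: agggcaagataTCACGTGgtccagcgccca
Glb1, chr9:114401018-114401047, plus strand, 48 bases upstream: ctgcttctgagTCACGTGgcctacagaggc
Mcoln1, chr8:3500462-3500491, plus strand, 45 bases upstream: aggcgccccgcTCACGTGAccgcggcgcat
Naglu, chr11:101070009-101070038, plus strand, 73 bases upstream: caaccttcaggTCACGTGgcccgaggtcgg
Gla, chrX:134601182-134601211, minus strand, 194 bases upstream: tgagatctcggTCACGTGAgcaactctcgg
Cln3, chr7:126583340-126583369, minus strand, 121 bases upstream: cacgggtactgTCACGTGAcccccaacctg
Atp6v1a, chr16:44139373-44139402, minus strand, 131 bases upstream: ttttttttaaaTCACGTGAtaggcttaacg
The *Lamp1* window held 4 such sites, and those of *Ctsa*, *Mcoln1*, *Gla* and *Cln3* held 2 each. The windows of *Ctsf* and *Ctsl* held CACGTG without the flanking base. Among these 10 genes with the longer element, *Gaa* and *Lgmn* fell in homozygotes against both other groups, *Ctsa* fell against heterozygotes, and the other 7 were not called in any comparison. Of all genes tested, 15.2% were called against controls and 13.6% against heterozygotes, and nothing about the element is read from these few genes.

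Values are normalized values, that is, reads plus 0.5 scaled to a common effective library size, and a gene was called when limma's adjusted p (Benjamini-Hochberg over all 14011 genes) was under 0.05. Libraries held 4294537 to 11629365 reads, and the lowest count of any of the 45 genes in a library was 25 reads. *Ctcf*, whose deletion defines the groups, fell from 121 to 122 in controls to 94.2 to 101 in heterozygotes and 79.6 to 84.7 in homozygotes, in the order of the labels. Cardiomyocyte markers were abundant in every library (summed values of 18274 to 25398 over 12 genes). Control 1 stood apart: its summed visceral endoderm and liver markers reached 1093 over 9 genes, against 65.8 and 78.1 in the other controls and 12.6 to 84.0 in the other groups. All 7 erythroid markers rose in homozygotes against controls (summed 56744 to 75049, against 31756 to 46258), with the highest sum in homozygote 3, and 4 of 5 epicardial markers rose. Of the other marker lists, cardiomyocyte markers had 1 of 12 genes higher and 2 lower, endothelial and endocardial markers 1 of 8 higher and 2 lower, cushion mesenchyme 0 of 6 higher and 2 lower, and macrophages 0 of 14 higher and 1 lower.

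Of the 45 lysosomal genes, 5 were called in homozygotes against controls (11.1%), beside 15.2% of all genes tested. The cysteine proteases *Ctsb* and *Ctso* and the transcription factor *Tfeb* rose, while *Gaa* and the asparaginyl protease *Lgmn* fell. The share of members that rose was 6.67% against 7.19% of all genes, and the share that fell 4.44% against 8.03%. The median log2 fold change of the 45 genes was -0.02, within a range of -0.86 to 0.47, and that of all genes was -0.00108. The sign of the median turned when 1 library was left out, to 0.00743 without control 1 and 0.0120 without homozygote 3. Fold changes were positive for 20 genes and negative for 25. The homozygote and control values did not overlap for 5 genes that were higher and 10 that were lower, 33.3% of the members beside 33.2% of all genes (16.6% higher and 16.5% lower). Without control 1 limma called 3 members, *Ctsb* higher and *Gaa* and *Lgmn* lower (6.67%, beside 11.5% of all genes). Without homozygote 3 it called 5, with *Naglu* in place of *Tfeb* (11.1%, beside 9.04% of all genes), and without control 3 the share was 11.1% beside 7.49%. Whether the share of called members lay below or above that of the table thus turned with 1 library, at an adjusted p under 0.01 (6.67% beside 6.12%) and with the trend with exonic length removed (11.1% beside 10.96%). In bulk hearts, fewer cells of a type and less RNA per cell cannot be told apart.

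**Figure D1:**
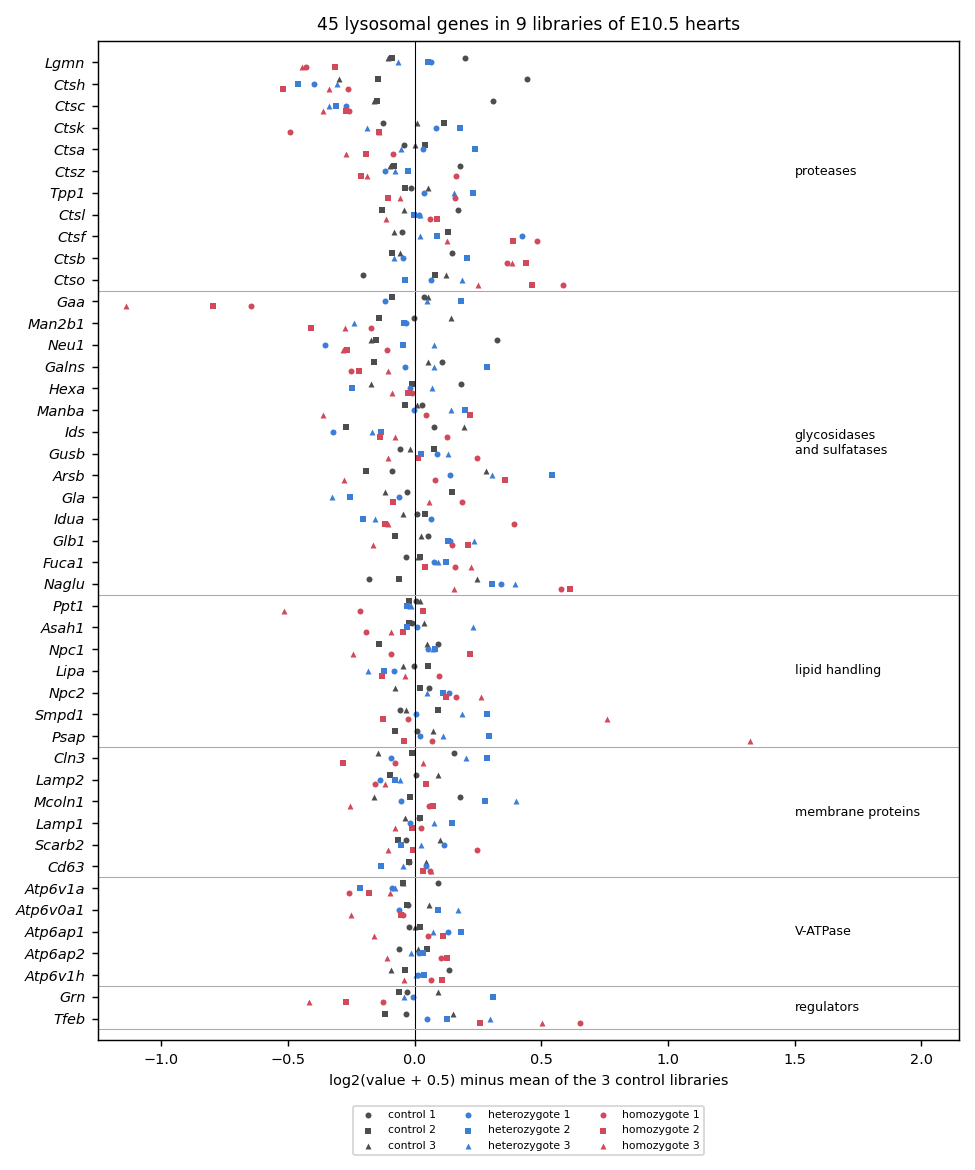
Log2(value + 0.5) of each of the 45 lysosomal genes in each of 9 libraries, minus the mean of the 3 control libraries, with genes grouped by role; gray points are controls, blue heterozygotes and red homozygotes, and circles, squares and triangles are libraries 1, 2 and 3. The points of most genes of the 3 groups are mixed, the homozygote points of *Gaa* and *Lgmn* lie to the left of all others, and *Psap* has a single point far to the right, homozygote 3.

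*Gaa*, whose product hydrolyzes glycogen in the lysosome, had the largest change of the list (NCBIM37 chr11:119129201-119146768, plus strand). Its values were 82.6, 75.7 and 83.4 in controls, 74.1, 91.5 and 83.2 in heterozygotes and 51.2, 46.1 and 36.2 in homozygotes. All 3 homozygote libraries were below every control and heterozygote library, and homozygote 3 was the lowest. The homozygote mean was 55.3% of the control mean, and the log2 difference was -0.86 ± 0.11 (SE, n = 3 per group; limma adjusted p = 0.000291). It fell without control 1 (-0.84, limma adjusted p = 0.00146) and without homozygote 3 (-0.72, limma adjusted p = 0.000497) as well.

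No other gene of the 14 glycosidases and sulfatases was called by limma or by edgeR. With *Gaa* among them, 3 had an unadjusted p under 0.05, beside 29.6% of all genes. The median log2 fold change of the 14 was 0.01. *Naglu*, an enzyme of heparan sulfate breakdown, had values of 6.58, 7.17 and 8.99 in controls, 9.66, 9.40 and 10.03 in heterozygotes and 11.5, 11.8 and 8.42 in homozygotes. Homozygotes 1 and 2 were above the controls, whereas homozygote 3 lay within their range. The log2 fold change was 0.45 ± 0.16 (limma adjusted p = 0.0792), and without homozygote 3 it was 0.60 (limma adjusted p = 0.0407). *Man2b1*, lysosomal alpha-mannosidase, had homozygote values of 29.9, 25.3 and 27.8, all below the control values of 33.7, 30.5 and 37.4 (-0.29 ± 0.10; limma adjusted p = 0.0694). *Fuca1*, which removes fucose, had homozygote values of 25.5, 23.4 and 26.7, all above the controls at 22.3, 23.1 and 23.0, with a log2 difference of 0.14 (limma adjusted p = 0.305). For the beta-galactosidase *Glb1*, the beta-glucuronidase *Gusb*, the hexosaminidase *Hexa*, the beta-mannosidase *Manba*, the alpha-galactosidase *Gla*, and *Idua*, *Ids* and *Arsb* of glycosaminoglycan breakdown, log2 fold changes lay between -0.04 and 0.06. *Galns*, a sulfatase of keratan sulfate, was at -0.19 and the sialidase *Neu1* at -0.22. *Arsb* was low in every library (6.53 to 11.9), and 45.3% of its exonic bases were shared with a transcript of the opposite strand, *Gm17447*.

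**Figure D2:**
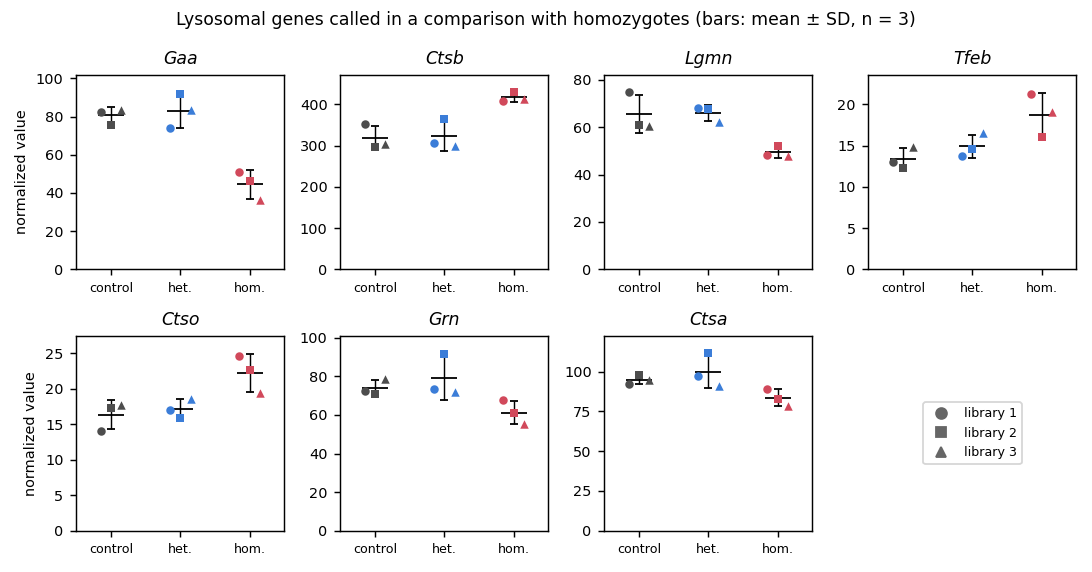
Normalized values of the 7 lysosomal genes called between homozygotes and controls or heterozygotes, with a point for each library and bars for the mean ± SD (n = 3); vertical axes start at 0 and het. and hom. stand for heterozygote and homozygote. *Gaa* and *Lgmn* were lower and *Ctsb* higher in all 3 homozygote libraries than in any of the other 6.

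Among the 11 proteases, *Ctsb* and *Ctso* rose, *Lgmn* fell and 8 were not called (18.2% higher and 9.09% lower, beside 7.19% and 8.03% of all genes), with a median log2 fold change of -0.08 (-0.00908 without control 1 and -0.02 without homozygote 3). *Ctsb* encodes cathepsin B, an abundant cysteine protease (chr14:63741302-63764758, plus strand). Its values were 351, 297 and 304 in controls, 307, 366 and 299 in heterozygotes and 408, 430 and 414 in homozygotes. Every homozygote library was above all libraries of the other groups, at 131% of the control mean, with a log2 difference of 0.40 ± 0.08 (limma adjusted p = 0.00586). Of the exonic bases of *Ctsb*, 16.2% were shared with *Fdft1* on the opposite strand, and strand was not marked by a standard TruSeq kit as far as the labels say. *Fdft1* had values of 65.5 to 74.7 in homozygotes and 73.6 to 81.4 in controls (-0.11, limma adjusted p = 0.323), a negative difference where that of *Ctsb* was positive.

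*Lgmn* encodes legumain, which cleaves after asparagine and also processes cathepsins (chr12:103632294-103678023, minus strand). Control values were 74.7, 61.0 and 60.4, heterozygote values 68.0, 67.4 and 62.2, and homozygote values 48.3, 52.2 and 47.7. The homozygote libraries were below all 6 others, and control 1 was the highest of the 9. The log2 fold change was -0.40 ± 0.08 (limma adjusted p = 0.00803), and without control 1 it was -0.30 (limma adjusted p = 0.0301).

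*Ctso*, a cysteine protease of lower abundance, had values of 14.03, 17.2 and 17.8 in controls and 24.6, 22.6 and 19.4 in homozygotes. The groups did not overlap, control 1 was the lowest library and homozygote 1 the highest. The log2 fold change was 0.43 ± 0.12 (limma adjusted p = 0.0320), and it was not called without control 1 (0.33, limma adjusted p = 0.124). *Ctsf*, another cysteine cathepsin, had values of 17.8, 16.7 and 13.8 in homozygotes against 12.2, 13.9 and 11.9 in controls, with homozygote 3 inside the control range (0.33 ± 0.14; limma adjusted p = 0.129).

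*Ctsl*, a major cathepsin of the endolysosome, showed no detectable change. Its values were 226, 184 and 195 in controls, 203, 201 and 204 in heterozygotes and 210, 214 and 186 in homozygotes, and the groups overlapped (0.01 ± 0.08; limma adjusted p = 0.942). The tripeptidyl peptidase *Tpp1* and the carboxypeptidase *Ctsz* were at 0.00 and -0.08. The carboxypeptidase *Ctsa*, also a protective partner of beta-galactosidase and sialidase, had homozygote values of 89.4, 82.8 and 78.5 against 92.0, 97.5 and 94.8 in controls. They did not overlap, and the log2 fold change was -0.18 ± 0.08 (limma adjusted p = 0.131). *Ctsk*, known from bone resorption, was likewise lower in every homozygote library (5.79 to 7.53, against 7.62 to 9.10 in controls) without passing the test (-0.26; limma adjusted p = 0.313).

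*Ctsh* and *Ctsc*, an aminopeptidase and a dipeptidyl peptidase, were highest in control 1. *Ctsh* had values of 16.8, 11.03 and 9.87 in controls, 9.17, 8.77 and 9.80 in heterozygotes and 10.1, 8.38 and 9.59 in homozygotes. Only control 1 stood apart, at 1.52 times the higher of the other controls. *Ctsc* was at 34.0, 24.7 and 24.5 in controls and at 21.2 to 22.8 in the other 6 libraries, and *Neu1* was at 24.9 in control 1 against 17.7 and 17.5. The log2 fold change in homozygotes against controls went from -0.37 to -0.15 for *Ctsh*, from -0.30 to -0.14 for *Ctsc* and from -0.22 to -0.06 for *Neu1* when control 1 was left out, and none was called by limma with or without it. Control 1 was the library with the visceral endoderm and liver signal (*Afp* at 595, against 47.6 and 49.2 in the other controls). The part of those cells in the values of *Ctsh*, *Ctsc*, *Neu1* and *Lgmn* was not tested.

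**Figure D3:**
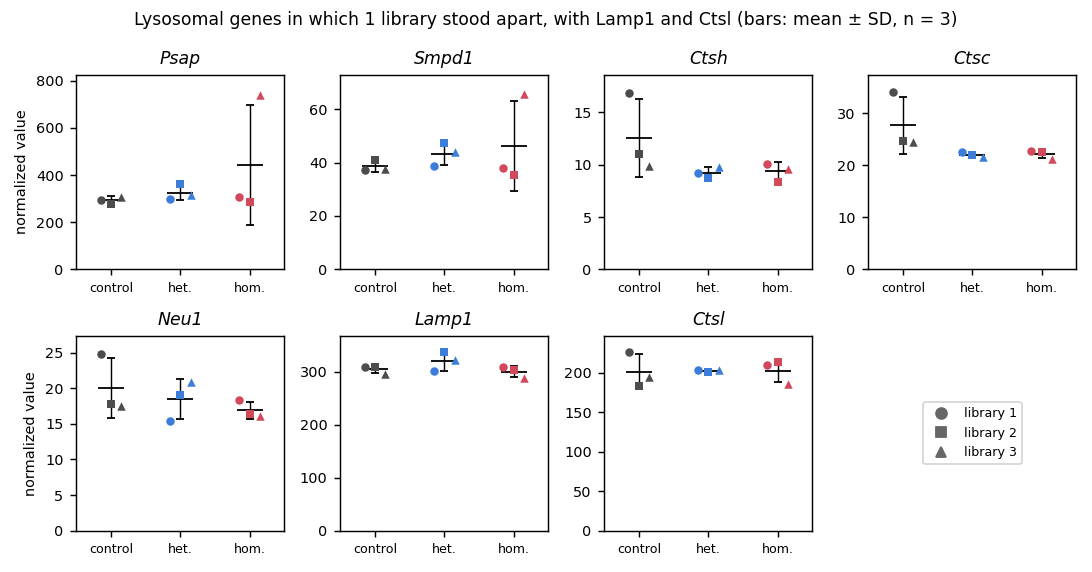
Normalized values per library, with mean ± SD bars (n = 3), of *Psap*, *Smpd1*, *Ctsh*, *Ctsc* and *Neu1*, in each of which 1 library stood apart, and of the abundant *Lamp1* and *Ctsl*; vertical axes start at 0. Homozygote 3 is far above all other libraries for *Psap* and *Smpd1*, control 1 is the highest for *Ctsh*, *Ctsc* and *Neu1*, and the groups of *Lamp1* and *Ctsl* overlap.

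No gene of lipid handling was called in homozygotes against controls by limma (0 of 7, and 0 by edgeR). An unadjusted p under 0.05 was found for 1, beside 29.6% of all genes, and the median log2 fold change of the 7 was -0.02. *Psap* encodes prosaposin, the precursor of the saposins that help hydrolases to reach sphingolipids. Its values were 296, 279 and 309 in controls, 298, 360 and 318 in heterozygotes and 308, 285 and 738 in homozygotes. Homozygotes 1 and 2 were in the range of the controls, and homozygote 3 was 2.39 times the higher of them. The log2 fold change of 0.45 ± 0.25 (limma adjusted p = 0.254) became 0.01 without homozygote 3 (limma adjusted p = 0.948). *Smpd1*, acid sphingomyelinase, had the same shape, with 37.8, 35.3 and 65.7 in homozygotes against 37.1, 41.1 and 37.6 in controls, and its log2 fold change went from 0.20 to -0.08 without that library. Of 9847 genes whose mean was 10 or more, 25 (0.254%) were at least 1.5 times both fellow libraries in homozygote 3, and *Psap* and *Smpd1* were the members among them.

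*Npc1* and *Npc2* act in sequence to export cholesterol from the lysosome. *Npc1* had values of 44.1, 37.5 and 42.8 in controls and 38.7, 48.2 and 34.8 in homozygotes, which overlapped (-0.04 ± 0.11; limma adjusted p = 0.845). *Npc2* was at 127, 124 and 116 in controls and 137, 133 and 146 in homozygotes, without overlap and just short of the threshold (0.18 ± 0.06; limma adjusted p = 0.0540). The acid lipase *Lipa* was at -0.02, the ceramidase *Asah1* at -0.11 and the palmitoyl thioesterase *Ppt1* at -0.23. When homozygote 2 was left out, *Ppt1* was called lower against controls and against heterozygotes. The homozygote values of *Asah1* (49.4, 54.8 and 52.9) were all below the lowest control value of 55.6.

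None of the 6 membrane proteins was called in homozygotes against controls by limma, and 0 were called by edgeR. An unadjusted p under 0.05 was found for 0, beside 29.6% of all genes. *Lamp1* had values of 309, 310 and 297 in controls, 301, 338 and 322 in heterozygotes and 310, 303 and 289 in homozygotes. The groups overlapped and the log2 fold change was -0.02 ± 0.06 (limma adjusted p = 0.837). Of its exonic bases, 7.85% overlap *Grtp1* on the opposite strand, which rose from 16.9 to 17.3 in controls to 27.1 to 30.9 in homozygotes (0.75, limma adjusted p = 0.000328). *Lamp2*, whose loss causes Danon disease of heart and muscle, had values of 188, 175 and 199 in controls, 170, 177 and 179 in heterozygotes and 167, 193 and 172 in homozygotes (-0.08 ± 0.07; limma adjusted p = 0.477). The tetraspanin *Cd63*, with a near-identical copy of 83.3% of its length elsewhere in the genome, was at 0.05 and the receptor *Scarb2*, which carries beta-glucocerebrosidase to the lysosome, at 0.04. The calcium channel *Mcoln1* was at -0.04. *Cln3*, the Batten disease gene, was at -0.11, with 6.52 to 8.24 in homozygotes and 7.24 to 9.02 in controls.

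The 5 V-ATPase members were not called by limma either, and edgeR called 0. Of these members 1 had an unadjusted p under 0.05, beside 29.6% of all genes, and their median log2 fold change was 0.00. *Atp6v1a*, the catalytic subunit, had homozygote values of 94.6, 99.8 and 106 below control values of 121, 110 and 110 (-0.18 ± 0.07; limma adjusted p = 0.0876). *Atp6v0a1*, a subunit of the membrane part, was at 71.9, 71.5 and 62.4 against 72.9, 72.7 and 77.3 (-0.12; limma adjusted p = 0.340). The regulatory subunit *Atp6v1h* was at 56.2, 49.8 and 47.9 in controls and 53.5, 55.1 and 49.7 in homozygotes, which overlapped (0.04 ± 0.07; limma adjusted p = 0.755). The accessory proteins *Atp6ap1* and *Atp6ap2* were at 0.00 and 0.04.

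Of the 2 regulators, *Tfeb* rose and *Grn* was not called against controls. *Tfeb*, the factor that binds the CLEAR element, had values of 13.0, 12.3 and 14.8 in controls, 13.8, 14.6 and 16.5 in heterozygotes and 21.2, 16.0 and 19.0 in homozygotes. All homozygote libraries were above all controls, and homozygote 2 was below heterozygote 3. The log2 fold change was 0.47 ± 0.13 (limma adjusted p = 0.0271), and it was not called without control 1 (0.45, limma adjusted p = 0.0710) or without homozygote 3 (0.45, limma adjusted p = 0.0814). *Grn* encodes progranulin, a secreted protein that is also delivered to the lysosome and cut there into granulins. It was at 72.2, 70.7 and 78.7 in controls, 73.5, 91.6 and 71.6 in heterozygotes and 67.6, 61.0 and 55.2 in homozygotes. The homozygotes were below both other groups, and the difference from controls was -0.27 ± 0.10 on the log2 scale (limma adjusted p = 0.0774). *Grn* was called lower against controls when heterozygote 2 or homozygote 1 was left out.

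**Figure D4:**
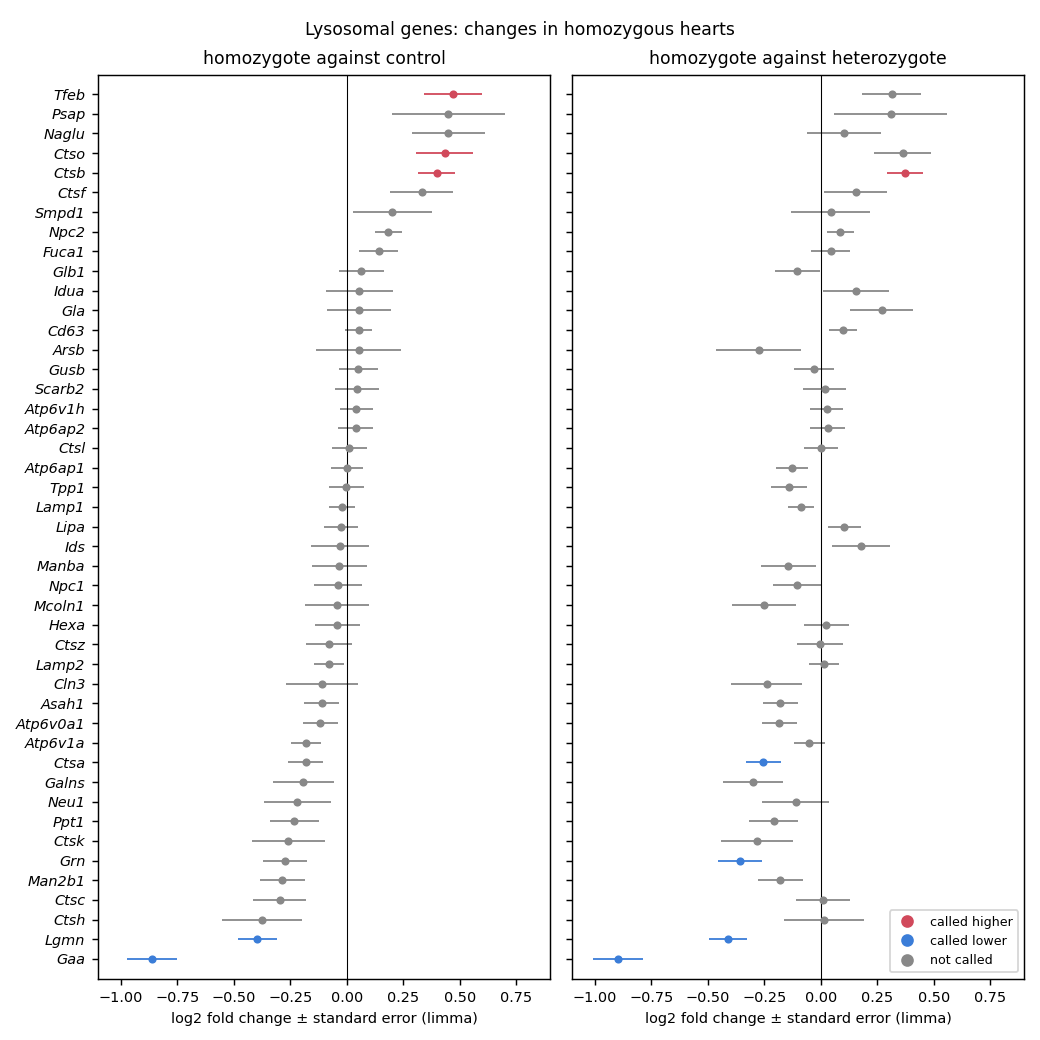
Log2 fold change ± standard error (limma) of the 45 lysosomal genes in homozygotes against controls (left) and against heterozygotes (right), ordered by the left panel; red and blue points were called higher and lower, gray points were not called. Most points lie close to 0, and *Gaa* is the lowest in both panels, at -0.86 and -0.90; the homozygote libraries are shared by the panels.

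Heterozygotes carry the Cre driver, so the comparison of homozygotes with them leaves the driver out. It shares the homozygote libraries with the comparison above. Again 5 of the 45 genes were called (11.1%), beside 13.6% of all genes. *Ctsb* rose (2.22% of members, beside 6.87% of all genes), and *Gaa*, *Lgmn*, *Grn* and *Ctsa* fell (8.89%, beside 6.70%). Without heterozygote 2 the count was 3 (6.67%, beside 8.97% of all genes), and without homozygote 3 it was 3 as well (beside 7.30%). Without heterozygote 3 the share was 11.1% beside 8.73% of all genes. The median log2 fold change was -0.00448, which was also the median of all genes, since *Ctsz* holds the middle rank in the list and in the table. Fold changes were positive for 22 members and negative for 23. Without overlap between the groups, 2 members were higher and 6 lower (17.8%, beside 30.8% of all genes, 15.3% higher and 15.5% lower).

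In this comparison *Gaa* fell by 0.90 ± 0.11 on the log2 scale (limma adjusted p = 0.000279), *Lgmn* by 0.41 ± 0.08 (limma adjusted p = 0.00696) and *Grn* by 0.36 ± 0.10 (limma adjusted p = 0.0274). *Ctsb* rose by 0.37 ± 0.08 (limma adjusted p = 0.00939). *Ctsa* was at 97.0, 112 and 91.2 in heterozygotes, all above the homozygotes, and fell by 0.25 ± 0.08 (limma adjusted p = 0.0442). Heterozygote 2 was the highest library for *Grn* and *Ctsa*, and neither was called without it (limma adjusted p = 0.106 and 0.172). *Tfeb* (0.31, limma adjusted p = 0.133) and *Ctso* (0.36, limma adjusted p = 0.0715) were not called, although all 3 homozygote values of *Ctso* were above the heterozygote values of 17.0, 15.8 and 18.6. *Galns* and *Asah1* were lower in every homozygote library than in any heterozygote library without passing the test (-0.30 and -0.18). Cell type markers moved here too. All 7 erythroid markers rose (heterozygote sums of 25544 to 43208), and so did 4 of 5 epicardial markers. Of 12 cardiomyocyte markers, 5 fell (*Myh6*, *Myh7*, *Nppa*, *Nkx2-5* and *Tbx5*) and 0 rose, with sums of 22044 to 25398 in heterozygotes and 18274 to 21822 in homozygotes. Cushion mesenchyme had 2 of 6 markers lower and endothelial and endocardial markers 1 of 8 lower. The part of these cells in the 5 called members was not tested.

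In heterozygotes against controls, where heterozygotes carry Cre and 1 floxed allele, limma called 0 of the 45 genes, beside 0.143% of all genes (0.0928% higher). edgeR called 0 as well. An unadjusted p under 0.05 was found for 2 genes, beside 7.37% of all genes: *Ctsc* and *Ctsh*, which were highest in control 1. The median log2 fold change was 0.07, with 31 genes positive and 14 negative, beside 49.98% of all genes positive. Markers leaned as well: 10 of 12 cardiomyocyte markers were positive, 13 of 14 macrophage, 7 of 8 endothelial and endocardial, 4 of 6 cushion mesenchyme, all 7 erythroid and all 9 visceral endoderm and liver markers were negative, 3 of 5 epicardial markers were positive, and the part of these cells in the median was not tested. None of these markers passed limma's adjusted threshold, and the unadjusted p was under 0.05 for 4 cardiomyocyte, 3 macrophage, 1 endothelial, 1 cushion mesenchyme, 0 erythroid, 0 epicardial and 6 visceral endoderm and liver markers. Values did not overlap for 4 genes that were higher and 4 that were lower (17.8%, beside 14.3% of all genes, 7.41% higher and 6.93% lower). The largest positive value was that of *Naglu* (0.35, limma adjusted p = 0.677), with all heterozygotes above all controls. Heterozygote 2 was the highest of the 9 libraries for 10 members (22.2%, beside 9.20% of all genes), and without it the median was 0.02.

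The level of the list also varied between libraries of a genotype. The median of the 45 genes on the log2 scale, relative to the control mean, was between -0.04 and 0.01 in controls, 0.01 and 0.08 in heterozygotes and -0.11 and 0.06 in homozygotes, with a pooled SD of 0.0534 within groups. Homozygote 3 was the lowest of the 9 libraries for 17 members (37.8%, beside 16.6% of all genes), and control 1 was the highest for 9 (20.0%, beside 8.19%). Homozygote 3 also had the highest erythroid sum, 75049, and the effect of this on the members was not tested. The summed value of all 45 genes was 2929 to 3136 in controls, 3006 to 3231 in heterozygotes and 3072 to 3377 in homozygotes, and in homozygote 3, the highest, *Psap* contributed 738.

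Lysosomal genes are abundant in macrophages, which are few in the embryonic heart. Of 17 macrophage markers, 14 were in the table, and *Aif1*, *C1qa* and *Cd163* were not found in it. The summed value of the 14 was 61.8 to 75.1 in controls, 45.9 to 48.9 in heterozygotes and 40.2 to 69.6 in homozygotes. The defining markers *Csf1r* and *Cx3cr1* were at 4.66 to 11.7 and 1.27 to 3.73 and overlapped between homozygotes and controls. *Lyz2* fell from 18.8 to 23.6 in controls to 6.24 to 13.2 in homozygotes (-1.30, limma adjusted p = 0.00142). The other 13 were not called against controls. Of the 14, 6 had positive and 8 negative log2 fold changes, with a median of -0.09, and the values next in size to that of *Lyz2* were *Mrc1* at -0.58, *Itgam* at -0.47 and *Spi1* at 0.44. Against heterozygotes *C1qb* rose (0.94, limma adjusted p = 0.0431) and *Lyz2* fell (-0.67, limma adjusted p = 0.0496). The part of macrophages in the lysosomal values was not tested.

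Per length, the most abundant of the 45 genes in controls were *Lamp1* (135 per kilobase of exonic length), *Psap* (108), *Ctsl* (102), *Cd63* (96.1) and *Ctsb* (67.0). The lowest were *Arsb* (1.89) and *Cln3* (1.40), with *Tfeb* at 2.36. In homozygotes *Lamp1*, *Psap*, *Ctsl*, *Cd63* and *Ctsb* were still the 5 highest, while *Gaa* went from rank 19 in controls to rank 26. The mean value over all libraries had a median of 42.7 over the 45 genes, not per length, against 25.8 over all genes, and the coefficient of variation within groups had a median of 8.11%. In data simulated on all 9 libraries, 102 genes were changed by 2 fold and 98 by 1.5 fold in homozygotes. Among those whose mean was 10 or more, limma called 96.9% of 65 and 75.4% of 69 against controls. Far fewer genes were changed there than were called in the hearts, so the adjusted p is not on the same footing. Smaller changes can be missed.

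The wider lysosomal and autophagy system was covered by 108 further genes in 6 lists. In homozygotes against controls 10 rose and 4 fell, 13.0% beside 15.2% of all genes, and the median log2 fold change was 0.04. Without control 1 the counts were 5 and 3, where 11.5% of all genes were called. Without homozygote 3 they were 5 and 2, where 9.04% of all genes were called. Against heterozygotes 9 rose (8.33%, beside 6.87% of all genes) and 5 fell (4.63%, beside 6.70%). Without homozygote 3 these counts were 6 and 3, where 7.30% of all genes were called. In heterozygotes against controls limma called 0 of the 108, edgeR called 0, and 3 had an unadjusted p under 0.05, beside 7.37% of all genes.

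V-ATPase subunits outside the 5 members had 4 of 13 genes higher (30.8%, beside 7.19% of all genes) and 0 lower (beside 8.03%) in homozygotes against controls. *Atp6v0e*, a small membrane subunit, was at 52.4, 54.3 and 50.5 in controls, 56.0, 59.9 and 55.2 in heterozygotes and 69.8, 71.0 and 70.3 in homozygotes. The homozygotes were above all other libraries with a narrow spread (0.42 ± 0.06; limma adjusted p = 0.000867). *Atp6v0b* of the proton-carrying ring was at 60.7, 58.3 and 55.5 in controls and 77.8, 71.2 and 72.1 in homozygotes (0.34; limma adjusted p = 0.00424). *Atp6v1f* (0.26) and the low *Atp6v1g2* (0.57) rose too. Without control 1 or without homozygote 3, 2 of the 13 were called higher and 0 lower, where 11.5% and 9.04% of all genes were called. The median log2 fold change of the 13 was 0.12 (0.17 without control 1 and 0.08 without homozygote 3).

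Of 22 other lysosomal enzymes and activators, 2 rose and 2 fell in homozygotes against controls (18.2% called, beside 15.2% of all genes). These counts were 2 and 2 without control 1, and 2 and 1 without homozygote 3 (11.5% and 9.04% of all genes called). *Acp5*, an acid phosphatase, was at 102, 78.2 and 81.5 in controls and 139, 130 and 178 in homozygotes (0.77 ± 0.16; limma adjusted p = 0.00638), and *Gm2a*, the activator of ganglioside breakdown, rose by 0.41. The serine carboxypeptidase *Scpep1* went from 43.9, 34.3 and 35.2 to 23.7, 25.8 and 29.9 (-0.50; limma adjusted p = 0.00913) and *Plbd2* fell by 0.45 on the log2 scale. None of 15 other membrane proteins was called by limma (0 by edgeR, 3 at an unadjusted p under 0.05, beside 29.6% of all genes). Their median log2 fold change was 0.13, with 11 positive and 4 negative (0.15 without control 1 and 0.21 without homozygote 3). Of 12 genes for delivery to the lysosome 16.7% were called: the sorting receptor *Sort1* fell by 0.48 on the log2 scale and the adaptor subunit *Ap1m1* rose by 0.22. Of 18 genes for nutrient sensing and MiT factors, *Lamtor3* rose (0.24), which is 5.56% of the list. Of 28 autophagy genes, *Map1lc3b* (0.30) and *Gabarap* (0.27), whose products coat the autophagosome membrane, rose and *Atg9a* fell by 0.28 on the log2 scale (10.7% called). Without control 1, and likewise without homozygote 3, 1 autophagy gene was called higher and 0 lower (11.5% and 9.04% of all genes called). Neither *Lamtor3* nor *Ap1m1* was called then.

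**Figure D5:**
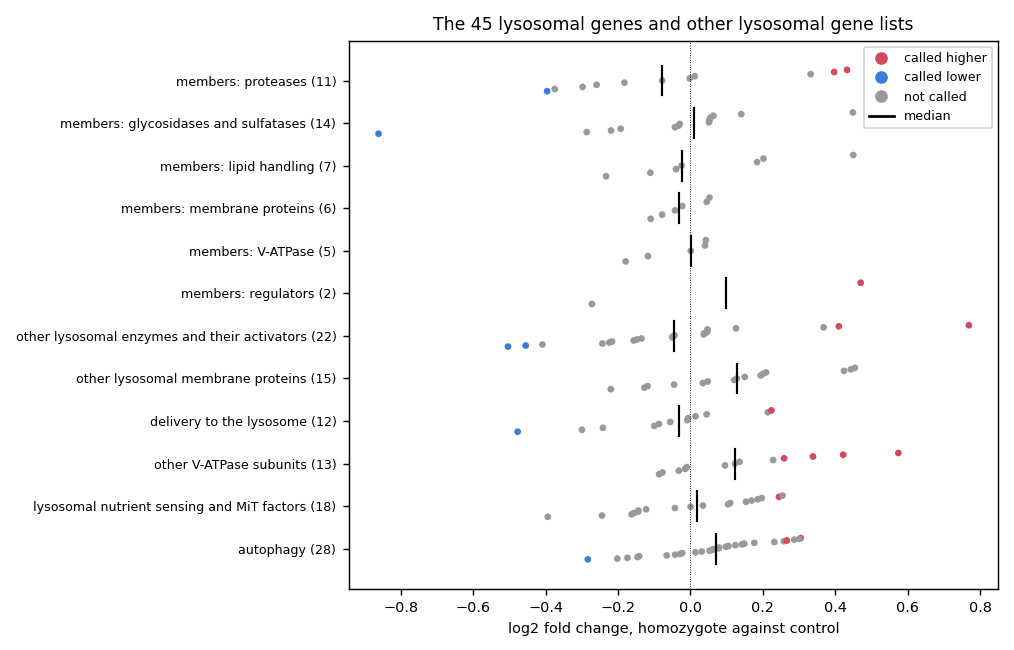
Log2 fold change in homozygotes against controls of each gene of the 6 groups of lysosomal members and of the 6 wider lists, with the number of genes in parentheses; black ticks are medians, and red and blue points were called higher and lower by limma. Medians lie between -0.08 (proteases) and 0.13 (other lysosomal membrane proteins). Calls are scattered, with 4 higher and 0 lower among the 13 other V-ATPase subunits.

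*Ctsd*, which encodes the aspartic protease cathepsin D, was called in both comparisons with homozygotes. Its values were 258, 262 and 274 in controls, 303, 354 and 304 in heterozygotes and 660, 670 and 559 in homozygotes, all above the other 6 libraries. The difference from controls was 1.24 ± 0.08 on the log2 scale (limma adjusted p = 7.08e-07) and that from heterozygotes 0.97. Among the 45 members the largest rise in homozygotes against controls was that of *Tfeb*, 0.47.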

How the data were processed

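RNA-seq had been performed on polyA RNA of pooled E10.5 hearts with a GAIIx sequencer and the standard TruSeq kit. The submitters' processing notes name CASAVA 1.8, cutadapt 1.6.1, RSEM 1.20, Bowtie2 0.12.7, limma and the build NCBIM37. The deposited table holds normalized signal values per gene: the authors scaled whole reads plus 0.5 to an effective library size (0.955 to 1.03 of the total reads). Whole reads were recovered for 100% of 126099 values (within 0.01 of a read). Every gene of the 14011 reached a value of 1 in 3 or more libraries. Columns named Het were taken as controls without Cre and those named DH as the heterozygotes, which the labels call double heterozygous. This assignment was checked against the group averages of the study's table, which matched for 1998 of 1998 and 787 of 787 genes.

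Values were analyzed as log2(value + 0.5) with limma 3.58.1 in R 4.3.3, with 9 libraries and 3 groups in a single fit with a mean-variance trend. P-values were adjusted by Benjamini-Hochberg over all 14011 genes (threshold 0.05). edgeR 4.0.16 (quasi-likelihood, TMM) on the recovered reads called 2212 genes in homozygotes against controls, 1903 against heterozygotes and 21 in heterozygotes against controls. A fold change on this scale understates that of low genes. The 45 genes, the other lists and the tests were chosen with earlier results of these data known, so no p-value is given for a list. Members named with values by rule were those called in any comparison, the 4 largest changes not called, the 3 highest and 2 lowest per kilobase in controls, and *Tfeb*, *Grn*, *Lamp1*, *Lamp2*, *Ctsb*, *Ctsl*, *Psap*, *Npc1* and *Atp6v1h*. From the other lists, the rule names called genes, at most 4 each. Further members were named after their values were seen. Gene positions and exonic lengths came from GENCODE M1 and promoters from RefSeq. Shared bases were taken from exons, and near-identical copies were searched with BLAST+ 2.17.0 (at least 95% identity over at least 200 bases), which found a copy elsewhere in the genome for *Cd63* (83.3% of its length). Tables were made with Python 3.11.15. The analysis was tested on simulated data with known changes. Alternatives were other pseudocounts, a stricter filter on low values, fits restricted to the pair of groups in question, quantile normalization, removal of the trend with exonic length, limma without the trend, edgeR with TMM or RLE factors, a stricter threshold, a replicate block and leaving out each library.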

Additional observations from a re-analysis of the deposited data

How the results depend on the processing

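Of the 45 genes, 5 were called in homozygotes against controls and 5 against heterozygotes. The counts were 3 and 2 with limma without the trend and 3 and 3 at an adjusted p under 0.01. Leaving out each library gave 3 to 6 against controls and 3 to 5 against heterozygotes. The count was 3 against controls without control 1 or control 2, where *Tfeb* and *Ctso* were lost, and 3 against heterozygotes without heterozygote 2 or homozygote 3, where *Grn* and *Ctsa* were lost. The median against heterozygotes lay between -0.0808 (without homozygote 1) and 0.00182 (without homozygote 3). *Gaa* and *Lgmn* were called in all 20 alternatives of both comparisons, and *Ctsb* in all 20 against controls and in 19 of 20 against heterozygotes. *Tfeb* was lost in 6 of 20 (limma or edgeR adjusted p 0.0158 to 0.0910), *Ctso* in 7 (0.0263 to 0.124), *Grn* against heterozygotes in 5 (0.0194 to 0.113) and *Ctsa* in 13 (0.0303 to 0.172). The causes were not tested. Heterozygotes against controls gave 0 members in all 20. The groups share replicate numbers, and same-numbered libraries had correlated deviations of -0.0429 to 0.0851, none above 0.1, so the numbers were not taken as a pairing. With the number as a replicate block, 4 members were called in each homozygote comparison (*Ctso* was lost against controls and *Ctsa* against heterozygotes) and 1756 and 1553 genes in all. Over all genes, counts moved by more than 1.5 times from 2133 and 1901 to 1196 and 1063 without the trend (20 to 10 in heterozygotes against controls), to 858 and 722 at the stricter threshold (20 to 13), to 1049 against controls without control 3, to 1267 and 1023 without homozygote 3, and to 1257 and 1223 against heterozygotes without heterozygote 2 or 3 (1268 without heterozygote 1, a smaller move). In heterozygotes against controls the count was 13 without heterozygote 3. Removing the trend with exonic length gave 838 higher and 695 lower genes against controls, in place of 1008 and 1125. Libraries of 4294537 to 11629365 reads limit the members of lowest value, *Cln3*, *Arsb*, *Ctsk* and *Naglu*.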
